A study of Mus musculus with 10 samples.

Results

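The genes described here are 45 genes of T cells and natural killer (NK) cells, taken by symbol from a fixed list out of the 24537 gene symbols of a liver count table. All 45 had a row. They were sorted by role into 4 subunits of the CD3 signalling complex, 3 coreceptors, 5 proximal signalling proteins, 8 adhesion and costimulatory molecules, 6 transcription factors, 5 inhibitory receptors, 6 cytotoxic effectors with interferon gamma, 5 NK receptors, and 3 cytokine receptors or activation markers.

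T cells read antigen through a receptor that signals by way of the CD3 chains, and the coreceptors CD4 and CD8 divide them into helper and cytotoxic cells. NK cells carry no such receptor and set a balance between activating and inhibitory receptors, but they kill with the same granzymes and perforin. The liver holds resident and passing populations of both, and in mice cytotoxic T cells with a granzyme K and PD-1 phenotype are known to gather in aged tissues. RNA of a whole liver comes mostly from hepatocytes, so lymphocyte genes are read there at low counts, and more cells of a type cannot be told apart from more RNA per cell.

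RNA was sequenced from 10 whole livers of male mice to ask how age and loss of Cd44, a hyaluronan receptor, in hepatocytes bear on the liver and its T cells. The vector described for the Cd44 guides was AAV8-TBG-saCas9-U6, an adeno-associated virus with a small Cas9 under TBG, a promoter of hepatocytes, so lymphocytes were not the cells meant to be edited. The young controls were 3 livers with the genotype label Rosa26-KO, with virus at 7 months of age and harvest at 9 months. The old controls were 3 livers with the same label, with virus at 23 months and harvest at 25 months. Rosa26 is a locus commonly edited as a neutral control, so the controls are labelled as edited too. The 4 old knockout livers had the same ages as the old controls: guide 4 in knockout 1 and 2 (Cd44-KO_g4) and guide 2 in knockout 3 and 4 (Cd44-KO_g2). No livers without virus are analysed here, strain was not given in the sources used here, and replicate numbers only name a liver.

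Total counts lay between 15821198 and 21710228 per liver, and no 2 livers of 1 group were alike within sampling noise. Whole-liver Cd44 ranged from 10.1 to 16.6 CPM (counts relative to the library total, with totals scaled by the trimmed mean of M values) in young livers, from 14.2 to 30.0 CPM in old controls and from 13.1 to 29.0 CPM in livers labelled knockout. It did not separate the last 2 groups (log2 fold change -0.25, SE 0.30, edgeR adjusted p 0.896), so directions between them rest on the labels. Old control replicate 2 stood apart in leukocyte RNA. Its summed level of 11 Kupffer cell markers was 1808 CPM against 557 to 1092 CPM in the other old controls, 510.4 to 916 CPM in knockout livers and 289 to 406 CPM in young livers. For 13 markers of monocyte-derived macrophages it had 572 CPM, with 148 to 206 CPM in the other old controls, 127 to 283 CPM in knockout and 81.2 to 126 CPM in young livers. Neutrophil markers, 12 genes, reached 320.1 CPM there, with 27.8 to 28.7 CPM in the other old controls, 16.8 to 34.4 CPM in knockout and 8.30 to 16.7 CPM in young livers.

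**Figure D1:**
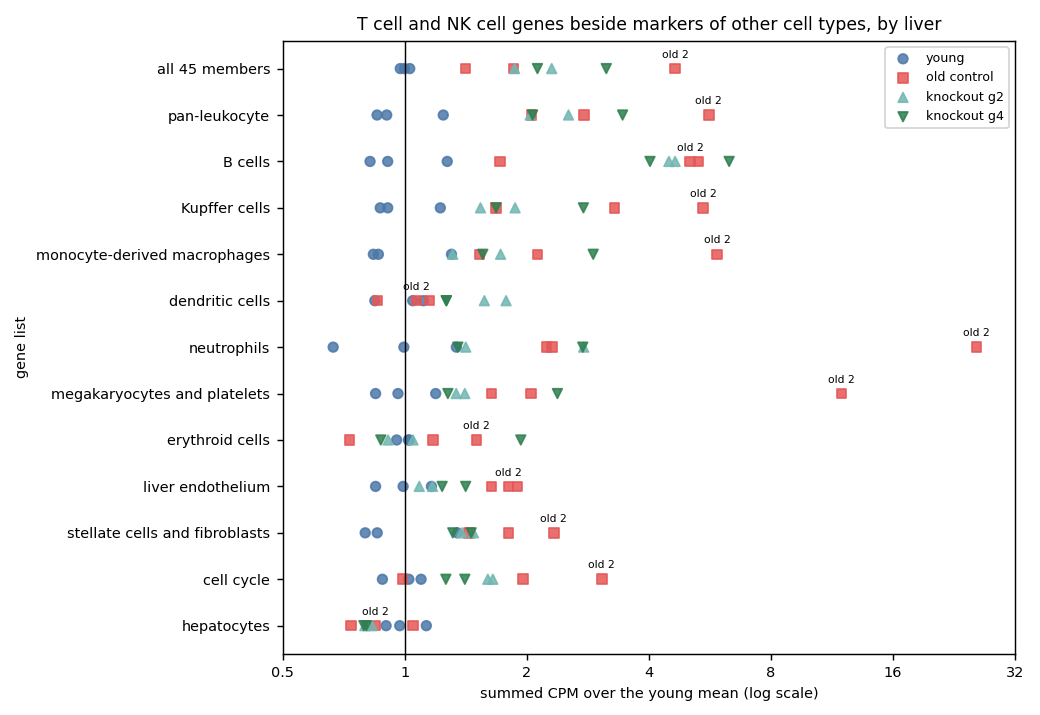
Summed CPM of the 45 T cell and NK cell genes and of marker lists of other cell types in each of 10 livers, divided by the mean of the 3 young livers, on a log axis; circles are young, squares old control, and triangles knockout livers by guide. Old control replicate 2 is highest among the 10 livers for the 45 genes and for the pan-leukocyte, Kupffer cell, macrophage, neutrophil and megakaryocyte lists, but not for B cells or hepatocytes.

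Of the 45 genes, 38 had enough counts to pass the expression filter and were tested. The 7 below it were Cd226, Lef1, Ctla4, Tigit, Ifng, Klrg1 and Ncr1, with totals over the 10 livers between 8 counts for Klrg1 and 59 for Ncr1. Among those tested the total ran from 66 counts for Pdcd1 to 1317 for Tcf7. Counts were thinnest in the young livers. There, 10 genes reached 10 counts in each of the 3 livers (Cd247, Cd4, Lck, Zap70, Tcf7, Tox, Lag3, Nkg7, Klrk1 and Il2rb), against 21 genes in each old control and 29 in each knockout liver. A further 11 genes had 3 counts or fewer in every young liver: Cd5, Lef1, Eomes, Ctla4, Pdcd1, Tigit, Gzmk, Klrg1, Klrd1, Ncr1 and Cd69. Since 3 counts, taken as the smallest detectable amount, were worth between 0.131 and 0.198 CPM, a difference among values below that was not detectable at this depth. Added up, the 45 genes had 478 to 531 counts in a young liver, 934 to 3217 in an old control and 1010 to 2274 in a knockout liver.

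**Figure D2:**
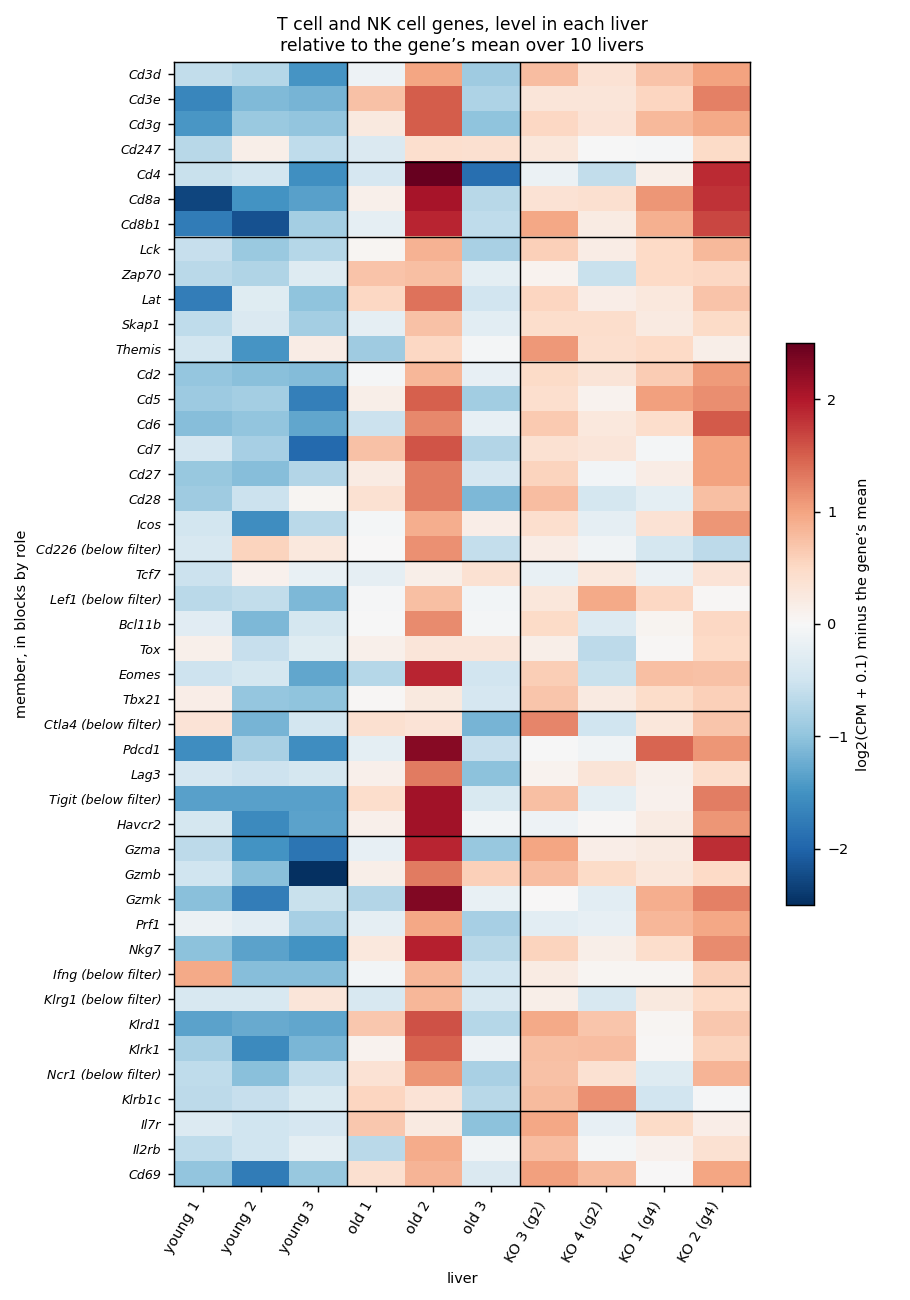
Level of each of the 45 genes (rows, in blocks by role) in each liver (columns), as log2(CPM + 0.1) minus the mean of that gene over the 10 livers; red is above and blue below that mean, and genes under the expression filter are named as such. The 3 young columns are mostly blue, the column of old control 2 is the darkest red, and old control 3 is pale or blue for most genes of the CD3 complex and coreceptors.

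Several of the 45 genes lie side by side in the genome. On chromosome 9 (GRCm38 annotation; the submitters' notes name mm10) Cd3g and Cd3d are 1337 bases apart and Cd3e lies 11682 bases from Cd3d. Klrd1 and Klrk1 on chromosome 6 are 11547 bases apart, and Cd8b1 and Cd8a on the same chromosome 35934. RefSeq promoters (GRCm38.p6) were found for 30 of the 45 genes, and the 250 bases before the start are shown for a CD3 chain, the CD8 alpha chain, a granzyme and a granule protein, all 4 of which rose with age. Cd3e spans chr9:44998735-45009663, Cd8a chr6:71373427-71379171, Gzmb chr14:56258836-56262334 and Nkg7 chr7:43437138-43438246 in GENCODE M21. The RefSeq start of Cd3e lies inside that GENCODE span, so the last bases of its window, with the capitals nearest the start, are within the gene. Capitals mark matches, on either strand, to 4 short motifs of factors used by T and NK cells: TGTGGT (RUNX), AGGAAG (ETS), CTTTGA (TCF/LEF) and AGGTGT (T-box).
Cd3e (chr9:45009612-45009861, minus strand): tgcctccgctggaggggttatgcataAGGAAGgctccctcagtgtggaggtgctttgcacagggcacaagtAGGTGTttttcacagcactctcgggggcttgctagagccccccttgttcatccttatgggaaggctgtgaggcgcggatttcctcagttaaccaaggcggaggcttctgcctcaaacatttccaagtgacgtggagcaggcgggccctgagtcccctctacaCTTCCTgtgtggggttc
Cd8a (chr6:71373177-71373426, plus strand): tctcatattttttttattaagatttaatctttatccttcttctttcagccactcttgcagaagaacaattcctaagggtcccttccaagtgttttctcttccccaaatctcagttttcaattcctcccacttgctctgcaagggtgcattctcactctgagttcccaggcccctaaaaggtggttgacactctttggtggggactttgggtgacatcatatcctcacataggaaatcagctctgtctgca
Gzmb (chr14:56262335-56262584, minus strand): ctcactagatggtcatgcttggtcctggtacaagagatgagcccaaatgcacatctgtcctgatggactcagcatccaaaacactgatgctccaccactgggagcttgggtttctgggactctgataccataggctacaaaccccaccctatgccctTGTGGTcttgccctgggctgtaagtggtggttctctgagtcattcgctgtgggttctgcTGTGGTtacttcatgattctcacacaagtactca
Nkg7 (chr7:43436888-43437137, plus strand): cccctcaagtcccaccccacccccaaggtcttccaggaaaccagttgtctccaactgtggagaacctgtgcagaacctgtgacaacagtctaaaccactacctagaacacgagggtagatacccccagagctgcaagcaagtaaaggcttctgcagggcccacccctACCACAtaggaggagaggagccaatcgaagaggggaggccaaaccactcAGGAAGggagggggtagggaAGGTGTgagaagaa
The RUNX letters were in 10 of the 30 promoters and in 14.1% of all 32851 promoters in the table. For the 30 genes only the first promoter listed for each was used, while the shares of all promoters counted every entry. Those 10 were Lck, Klrb1c, Klrk1, Ncr1, Nkg7, Prf1, Havcr2, Gzma, Gzmb and Tigit, 7 of them effector or NK receptor genes by the roles above. ETS letters were in 15 of 30 (29.5% of all promoters), T-box letters in 9 of 30 (11.8% of all), and TCF/LEF letters in 4 of 30 (13.8% of all). The Cd8a window held none of them. A match describes the letters only, and no binding was measured.

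With age, 15 of the 45 genes rose and none fell (edgeR, adjusted p under 0.05). That is 33.3% of them, while 14.1% of the 13909 genes tested were called higher and 8.66% lower. They spanned the T cell receptor machinery (Cd3e, Cd3g, Cd8a, Cd8b1, Zap70, Lat), surface molecules (Cd2, Cd7, Cd27), the inhibitory receptor Havcr2, effectors (Gzmb, Nkg7), NK receptors (Klrd1, Klrk1) and the activation marker Cd69. The summed level of the 45 genes was 32.5, 31.5 and 30.8 CPM in the young livers and 58.5, 147 and 44.5 CPM in old controls 1 to 3. The groups did not overlap, but old control 2 alone held 58.7% of the old control sum. The mean ratio of old to young was 2.63 with all livers and 1.63 without old control 2. Fitted without the expression filter, each of the 45 log2 fold changes was above 0, with a median of 1.58 (1.47 with Tigit, at 0 counts in every young liver, set to its lower bound) against 0.07 over all 18730 genes with a count, 54.1% of which were above 0. For 17 of the 38 tested, every old control lay above every young liver, as for 19.7% of all genes tested. On total counts instead of scaled totals, every difference between old control and young would be 0.30 higher on the log2 scale.

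**Figure D3:**
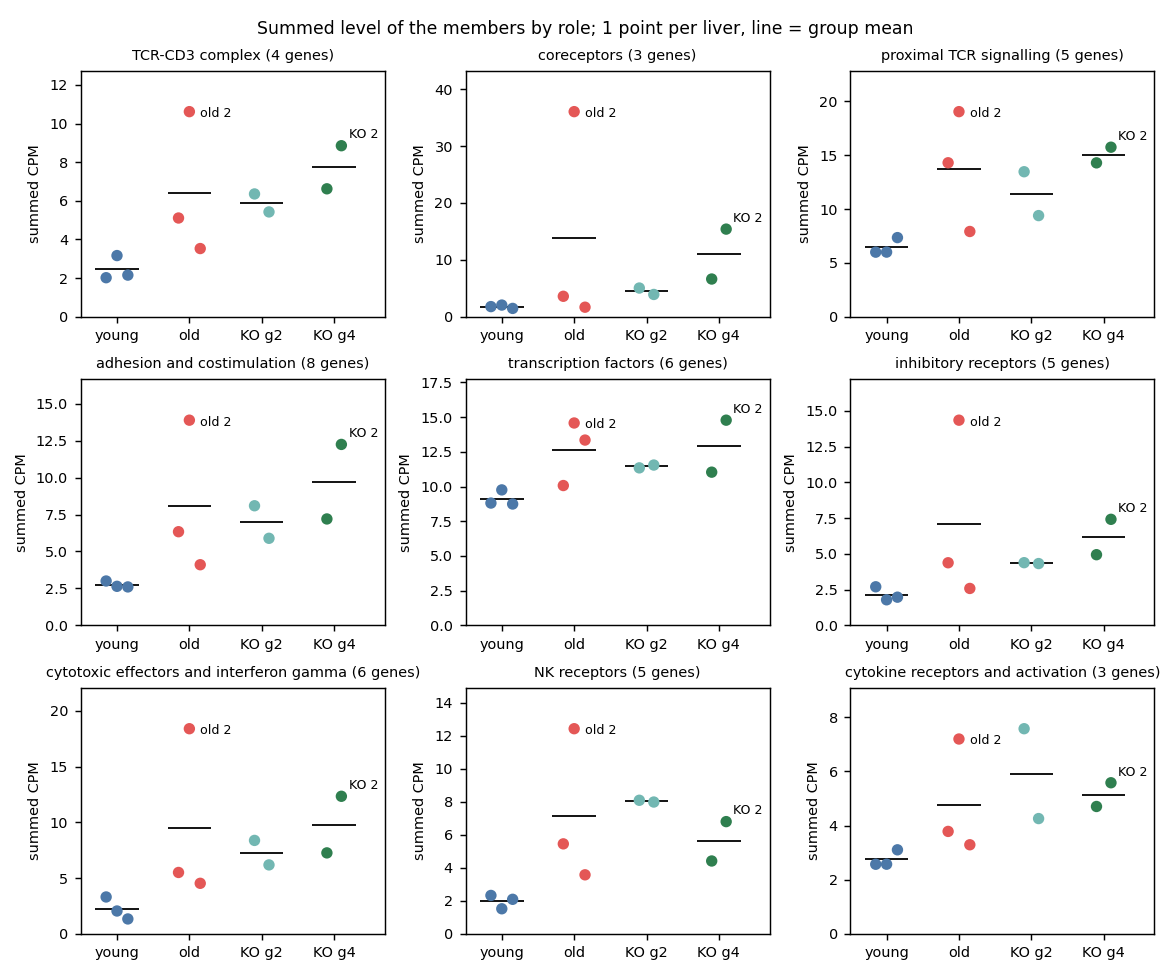
Summed CPM of the genes of each role (9 panels), with 1 point per liver and a line at the group mean; the groups on the horizontal axis are young, old control and the knockout livers by guide. Old control 2 is the highest of the old controls in all 9 panels, and in the coreceptor panel it lies at 36.0 CPM while all other livers are at 15.4 CPM or below.

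The CD3 chains carry the signal of the T cell receptor into the cell. Cd3e had 0.245, 0.396 and 0.380 CPM in the young livers and 1.67, 2.96 and 0.524 CPM in old controls 1 to 3, so the groups did not overlap, though old control 3 lay close to the young livers. Its log2 fold change was 2.32 (SE 0.61, edgeR adjusted p 0.0239), and 1.67 with an adjusted p of 0.0941 without old control 2. Cd3g had 0.428, 0.659 and 0.633 CPM in young and 1.62, 4.05 and 0.620 CPM in old control livers, where replicate 3 fell inside the young range (log2 fold change 1.87, SE 0.58, edgeR adjusted p 0.0408). Cd3d, with 0.428, 0.396 and 0.190 CPM in young and 0.639, 1.5 and 0.334 CPM in old control livers, did not pass (edgeR adjusted p 0.119). Cd247, the zeta chain, had means of 1.19 ± 0.451 and 1.77 ± 0.517 CPM (SD, n = 3 each, edgeR adjusted p 0.246), and 58.6% of its exonic bases overlap other genes, whose reads may be mixed with its own because the use of strand is not given. The overlap was 25.9% for Ifng, 13.9% for Klrb1c, 13.7% for Lef1 and 10.8% for Cd7.

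CD8 alpha and beta form the coreceptor of cytotoxic T cells, and both genes rose. Cd8b1 had 2, 1 and 5 counts in the young livers and 11, 59 and 8 in the old controls, or 0.122, 0.0659 and 0.317 CPM against 0.540, 2.69 and 0.381 CPM. The groups did not overlap, and 74.5% of the old sum came from replicate 2 (log2 fold change 2.79, SE 0.88, edgeR adjusted p 0.0416). Cd8a had 0.183, 0.396 and 0.443 CPM in young and 1.42, 5.74 and 0.763 CPM in old controls, again without overlap (log2 fold change 2.94, SE 0.80, edgeR adjusted p 0.0264). Its old to young ratio was 7.75, and 3.21 without replicate 2. Cd4, the coreceptor of helper cells, behaved differently. It had 1.47, 1.58 and 0.697 CPM in young livers and 1.62, 27.6 and 0.524 CPM in old controls, so that 92.8% of the old sum lay in replicate 2 while the other 2 old controls stayed within or near the young range. Its log2 fold change of 2.99 (SE 1.22) did not pass (edgeR adjusted p 0.0971), and it was -0.22 without that liver. Per count of Cd3d, Cd3e and Cd3g together, old control 2 had 3.24 counts of Cd4, while the other 9 livers had 0.355 to 1.33. Kupffer cell, macrophage and neutrophil markers were also highest in old control 2. What part of its Cd4 RNA came from helper T cells was not tested.

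Among the kinases and adaptors next to the receptor, Zap70 and Lat rose. Zap70, the kinase that binds phosphorylated CD3 chains, had 3.55, 3.36 and 4.56 CPM in young and 9.48, 9.75 and 4.86 CPM in old control livers, with no overlap and only 40.5% of the old sum in replicate 2 (log2 fold change 1.07, SE 0.33, edgeR adjusted p 0.0391). Lat, the membrane scaffold that Zap70 phosphorylates, had 0.306, 0.989 and 0.570 CPM against 1.82, 3.33 and 0.858 CPM, where old control 3 was below young 2 (log2 fold change 1.69, SE 0.52, edgeR adjusted p 0.0397). Lck, the kinase bound to the coreceptors, had 1.47, 1.12 and 1.33 CPM in young and 2.31, 4.19 and 1.24 CPM in old control livers and missed the threshold (edgeR adjusted p 0.0948). Skap1 and Themis, an adaptor of integrin activation and a signalling protein of thymocytes, had edgeR adjusted p of 0.140 and 0.573.

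Of the 8 adhesion and costimulatory molecules 7 were tested, and 3 rose. Cd2, which binds CD48 on other cells, had closely spaced young values, 0.489, 0.461 and 0.443 CPM, and 1.03, 1.96 and 0.906 CPM in old controls, all above every young liver (log2 fold change 1.47, SE 0.40, edgeR adjusted p 0.0260). Cd7 had 0.734, 0.527 and 0.190 CPM in young and 1.77, 3.23 and 0.572 CPM in old controls, with replicate 3 inside the young range (log2 fold change 1.93, SE 0.63, edgeR adjusted p 0.0484). Cd27, a costimulatory receptor of the TNF receptor family, had 0.367, 0.330 and 0.443 CPM against 0.933, 2.10 and 0.572 CPM without overlap (log2 fold change 1.65, SE 0.54, edgeR adjusted p 0.0471). Cd5 and Cd6, neighbouring genes for scavenger-type receptors that tune receptor signalling, missed the threshold with adjusted p of 0.0640 and 0.0649 in edgeR. Cd5 had 7 counts over the 3 young livers and 45 over the old controls, a ratio per scaled total of 4.81 (exact 95% interval 2.15 to 12.6, counting error only), and 2.29 (0.865 to 6.70) without old control 2. Icos and Cd28, costimulators of one family, had adjusted p of 0.0614 and 0.283, and Cd226 stayed below the filter with at most 12 counts in any liver.

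None of the 5 transcription factors tested was called, and the remaining one, Lef1, was below the filter. Tcf7, the factor of naive and stem-like T cells, had 4.65, 7.32 and 5.95 CPM in young and 5.80, 7.47 and 8.82 CPM in old control livers, an overlap of most values, and its highest old control was replicate 3 (log2 fold change 0.30, SE 0.24, edgeR adjusted p 0.371). Tox, tied to T cell exhaustion and development, likewise peaked in replicate 3, at 3.24 CPM against 2.85 and 3.23 CPM in the others (edgeR adjusted p 0.272). In old control 3, Cd3d, Cd3e and Cd3g together had 31 counts, the fewest of the old controls (80 and 187 in replicates 1 and 2). Which cells the Tcf7 and Tox RNA came from was not tested. Eomes, a T-box factor of effector and NK cells, rested on 1 liver: counts were 3, 3 and 1 in young livers and 3, 31 and 4 in old controls. Its ratio per scaled total was 4.06 (exact 95% interval 1.79 to 10.8, counting error only), and 1.15 (0.343 to 3.82) without old control 2. Bcl11b, which keeps T cell identity, and Tbx21, the T-box factor of type 1 responses, had edgeR adjusted p of 0.10 and 0.403. Lef1, partner of Tcf7, had 1 to 2 counts in each young liver and 5 to 11 in each old control.

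Of the 5 inhibitory receptors 3 were tested, and 1 rose. Havcr2 (TIM-3, also made by macrophages and dendritic cells) had 1.16, 0.461 and 0.570 CPM in young and 1.77, 7.20 and 1.53 CPM in old controls, with no overlap and 68.6% of the old sum in replicate 2 (log2 fold change 2.24, SE 0.66, edgeR adjusted p 0.0334). Its part from myeloid cells, whose markers were highest in the same liver, was not tested. Pdcd1, the gene of PD-1, had 0, 1 and 0 counts in the young livers and 3, 29 and 2 in the old controls; without replicate 2, both groups were at or under 3 counts per liver and no ratio can be given. Its edgeR adjusted p was 0.0575. Tigit had no count in any young liver and 5, 22 and 2 counts in old controls, so its old control mean was at least 2.35-fold higher than the amount of 3 counts per young liver. Without replicate 2 the old control mean was below that amount, so no rise is shown. In the fit without the expression filter Tigit passed over all livers (edgeR adjusted p 0.0306). Lag3, which binds MHC class II, did not pass (edgeR adjusted p 0.174): its old controls had 2.01, 4.65 and 0.858 CPM, on both sides of the 1.25 to 1.35 CPM of young livers. Ctla4 had at most 4 counts in any control liver.

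Among the effectors, Gzmb and Nkg7 rose. Gzmb, the granzyme that starts caspase cleavage in target cells, had 1.10, 0.725 and 0.190 CPM in young and 1.77, 4.05 and 2.48 CPM in old controls. All old controls lay above all young livers, and the difference rested less on 1 liver than for most genes, with a ratio of 4.12 that was 3.16 without replicate 2 (log2 fold change 2.03, SE 0.48, edgeR adjusted p 0.0164). Nkg7, a granule protein of cytotoxic cells, had 0.917, 0.725 and 0.633 CPM against 2.41, 7.88 and 1.19 CPM, again with no overlap (log2 fold change 2.33, SE 0.62, edgeR adjusted p 0.0251). Gzma had 16, 82 and 9 counts in old controls and 3 to 9 in young livers (edgeR adjusted p 0.0767). Gzmk, the granzyme of age-associated CD8 T cells, had 1, 0 and 2 counts in young livers and 2, 34 and 4 in old controls; the ratio of 9.97 (exact 95% interval 3.18 to 50.4, counting error only) became 2.29 (0.489 to 14.2) without replicate 2, and the edgeR adjusted p was 0.0828. Prf1, the pore-forming perforin, had 0.367, 0.330 and 0.190 CPM in young and 0.344, 0.911 and 0.191 CPM in old controls, 2 of which lay inside the young range. Ifng had 5, 0 and 0 counts in young livers and 2, 6 and 1 in old controls, and a change was not detectable at this depth.

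Of the 5 NK receptors 3 were tested, and 2 rose; together with Gzmb these had the smallest p-values of the 45. Klrk1 (NKG2D, an activating receptor of NK and CD8 T cells) had 1.77, 0.989 and 1.39 CPM in young and 3.39, 9.02 and 2.91 CPM in old control livers, without overlap (log2 fold change 1.88, SE 0.44, edgeR adjusted p 0.0160). It alone passed without old control 2, where its log2 fold change was 1.18 and its edgeR adjusted p 0.0494. Klrd1 (CD94, the partner chain of the NKG2 receptors) had 3 counts in each young liver and 21, 45 and 7 in old controls. Its ratio was 6.06 (exact 95% interval 3.03 to 13.8, counting error only), and 3.56 (1.63 to 8.58) without replicate 2, with an edgeR adjusted p of 0.0213 over all livers. Ncr1 (NKp46), the receptor most particular to NK cells, had 2, 1 and 2 counts in young livers and 7, 14 and 2 in old controls, a ratio of 3.44 (exact 95% interval 1.28 to 11.6), and 2.06 (0.620 to 7.83) without replicate 2. It was below the filter, and its edgeR adjusted p in the fit without a filter was 0.152. Klrb1c (NK1.1) had 0.245, 0.264 and 0.317 CPM in young and 0.688, 0.592 and 0.238 CPM in old controls, where replicate 1, not 2, was highest (edgeR adjusted p 0.316). Klrg1 had 8 counts in all, too few for any comparison.

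Cd69, an early activation and residence marker also found on other leukocytes, had 3, 1 and 3 counts in young livers and 13, 20 and 7 in old controls, with no overlap. Its ratio was 4.27 (exact 95% interval 1.89 to 11.3, counting error only) and 3.27 (1.33 to 9.15) without replicate 2 (edgeR adjusted p 0.0309 over all livers). Il7r and Il2rb, receptor chains for interleukin 7 and for interleukins 2 and 15, had edgeR adjusted p of 0.395 and 0.224.

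**Figure D4:**
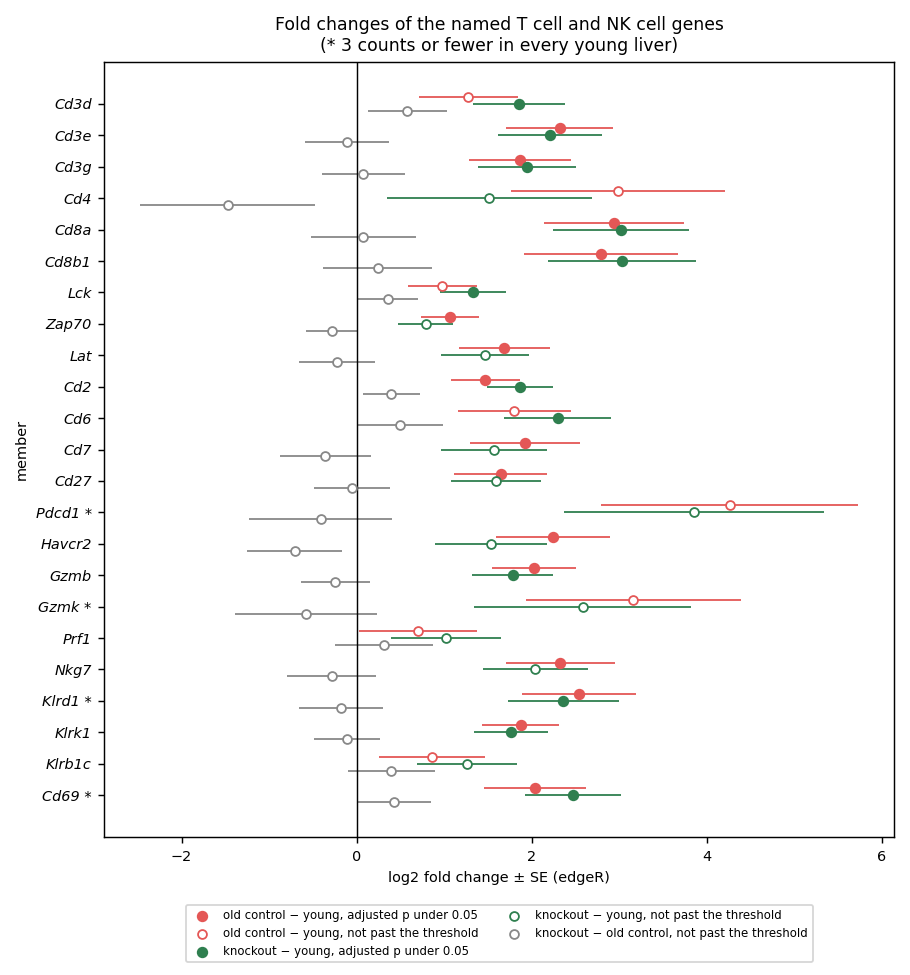
Log2 fold change with its SE from edgeR for the named genes that passed the expression filter, for old control against young (red), knockout against young (green) and knockout against old control (grey); filled points have an adjusted p under 0.05 and an asterisk marks genes with 3 counts or fewer in every young liver. No grey point is filled, and the red and green points of one gene share the same young livers.

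How far these calls rest on 1 liver was examined gene by gene. Old control 2 was the highest of the old controls for 40 of the 45 genes and held over 50% of the old control sum for 34. Leaving it out left 1 of the 15 calls, Klrk1, with 5.22% of all genes called higher in that fit. The means remained above the young means for 40 of 45 genes; Cd4, Cd226, Prf1, Ifng and Klrg1 were below. In old control 1 alone 37 genes were above the young mean, and in old control 3 alone 32. Leaving out old control 3, the lowest of the old controls, gave 26 calls, in a fit with 21.2% of all genes called higher. The calls also depended on the young livers, with 3, 0 and 1 calls when young 1, 2 and 3 were left out in turn (7.84%, 2.02% and 7.24% of all genes called higher). There were 9 when knockout 3, which is in neither group but enters the shared scaling and spread, was left out (11.7%). Klrk1 and Gzmb each passed in 8 of the 10 fits without 1 liver, Havcr2 in 7, Cd3e, Cd8a, Cd2, Nkg7 and Klrd1 in 6, and Cd69 in 5. Other tests on all livers called 21 genes with DESeq2 (16.6% of all genes called higher) and 2, Gzmb and Klrk1, with limma voom (9.55%). Without the expression filter edgeR again called 15 (9.81% of all genes called higher), with Tigit in place of Cd27. An edgeR fit of young and old control livers alone called none (5.69% of all genes called higher). Its filter left 20 of the 45 genes, and others of the 38 passed only with knockout livers included.

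**Figure D5:**
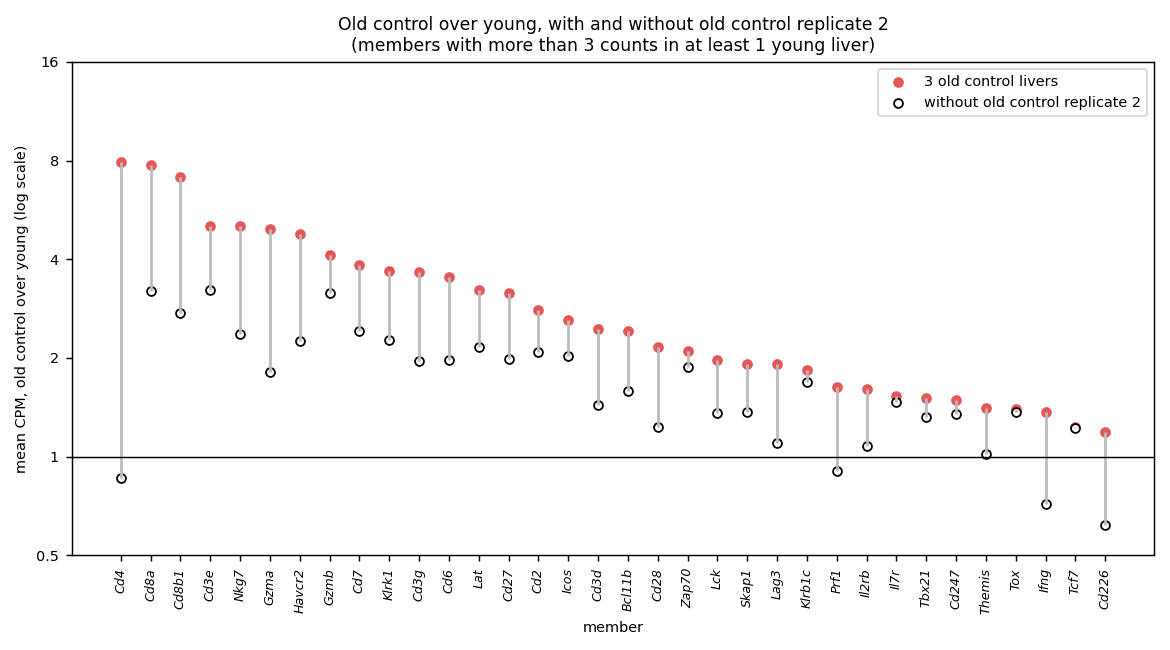
Ratio of mean CPM, old control over young, for the genes with more than 3 counts in at least 1 young liver, on a log axis, with all 3 old controls (red) and without old control 2 (open circles). The open circle falls below 1 for Cd4, Prf1, Ifng and Cd226, stays above 3 for Cd3e, Cd8a and Gzmb, and moves little for Tcf7, Tox, Zap70 and Il7r.

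Between old knockout livers and the old controls, which also serve in the age comparison, none of the 45 genes was called (0.0% of all genes were called by edgeR). Without adjustment, none of the 45 had a p under 0.05 either, against 6.59% of all genes, and DESeq2 and limma voom also called none. Mean CPM was higher in the knockout for 23 genes and lower for 22, with a median ratio of 1.05. The summed level was 67.1, 99.2, 72.7 and 58.9 CPM in knockout 1 to 4, inside the span of the old controls. No gene of the 45 separated the groups, whereas 2.84% of all genes tested lay wholly higher in knockout livers and 3.26% wholly lower.

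The direction of this comparison turned on old control 2. Without it the knockout mean was higher for 42 of the 45 genes, all but Zap70, Tcf7 and Tox, with a median ratio of 1.68 among the 44 with a count in the remaining old controls, and still with none called. Cd8a had 2.90, 4.80, 1.69 and 1.75 CPM in knockout 1 to 4, which lay between old control 2 and the other old controls; its log2 fold change was 0.08 (SE 0.60, edgeR adjusted p 0.990), and 1.35 without old control 2. Cd3d had 1.22, 1.53, 1.27 and 0.933 CPM in knockout livers, above 2 of the 3 old controls at 0.639, 1.5 and 0.334 CPM (log2 fold change 0.58, SE 0.45, edgeR adjusted p 0.821). Cd4 had 2.44, 8.33, 1.98 and 1.40 CPM in knockout livers; its log2 fold change was -1.47 (SE 1.0, edgeR adjusted p 0.798) and turned to 1.73 without old control 2. Gzmk had 9, 16, 5 and 3 counts in knockout 1 to 4 and Pdcd1 had 12, 12, 4 and 3, in both cases within the range of the old controls. Gzmb had 1.97, 2.31, 2.78 and 2.27 CPM in knockout livers, a narrow set inside the old control range (log2 fold change -0.24, SE 0.40, edgeR adjusted p 0.918). Prf1, with 0.813, 0.916, 0.330 and 0.350 CPM, Ncr1, with 3, 12, 10 and 6 counts, and Ifng, with 2 to 5 counts, also overlapped the old controls.

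Old knockout livers were also set against the young controls, which are the same 3 young livers as in the age comparison. Here 12 of the 45 genes rose (26.7%, against 6.64% of all genes called higher) and none fell (4.97% of all genes): Cd3d, Cd3e, Cd3g, Cd8a, Cd8b1, Lck, Cd2, Cd6, Gzmb, Klrd1, Klrk1 and Cd69. Knockout values lay wholly above young values for 27 of the 38 tested, against 21.1% of all genes. On young and old control livers alone, the filter left 20 of the 45 genes. Others of the 38 passed only with knockout livers included, so this count was partly set by the filter. The median log2 fold change of the 45 without the filter was 1.53 (0.07 over all genes). It was above 0 for 44 of them, against 54.5% of all genes, and below for Cd226. Over the knockout livers the summed level was more even than over the old controls. That difference lay in old control 2, at 147 CPM, with 58.5 and 44.5 CPM in the other old controls. The summed level had a mean of 74.5 ± 17.4 CPM (SD, n = 4), against 83.2 ± 55.3 CPM in old controls (SD, n = 3), and knockout 2 held 33.3% of the knockout sum.

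The largest of these rises were in the CD8 genes. Cd8b1 had 1.28, 2.27, 1.37 and 0.758 CPM in knockout 1 to 4, all above the young maximum of 0.317 CPM (log2 fold change 3.03, SE 0.84, edgeR adjusted p 0.0425), and Cd8a, at 1.69 to 4.80 CPM against at most 0.443 CPM, gave 3.02 (SE 0.78, adjusted p 0.0350 in edgeR). Cd3e, with 1.45, 2.44, 1.22 and 1.22 CPM, Cd3g, with 2.44, 2.70, 1.98 and 1.75 CPM, and Cd3d lay above all young livers as well. Lck had 3.19, 4.01, 3.44 and 2.57 CPM in knockout livers (log2 fold change 1.34, SE 0.38, edgeR adjusted p 0.0449). Cd2, with 1.68, 2.31, 1.51 and 1.34 CPM, had the smallest adjusted p of the 45, 0.0192 in edgeR, and Cd6 had 0.871, 1.96, 1.04 and 0.758 CPM against 0.245, 0.264 and 0.190 CPM in young livers and 0.393, 1.55 and 0.524 CPM in old controls. Klrk1 had 3.25, 4.71, 5.46 and 5.48 CPM and Klrd1 0.639, 1.05, 1.27 and 1.05 CPM. Cd69 had 8, 23, 22 and 15 counts in knockout livers, a ratio to young of 5.85 (exact 95% interval 2.69 to 15.1, counting error only). The remaining genes called with age were not called here. In knockout 1 to 4, Nkg7 had 2.73, 4.62, 2.97 and 2.22 CPM and Havcr2 1.86, 3.58, 1.46 and 1.63 CPM. Zap70 had 8.13, 8.24, 6.17 and 3.91 CPM, with knockout 4 inside the young range, and Lat 1.51, 2.09, 1.84 and 1.40 CPM. Cd7 had 0.987, 2.14, 1.37 and 1.28 CPM and Cd27 0.929, 1.70, 1.22 and 0.758 CPM. Of these 6, all but Zap70 lay above every young liver in each knockout liver, but Nkg7 (edgeR adjusted p 0.0503), Cd27 (0.0638), Lat (0.0752), Cd7 (0.103), Zap70 (0.107) and Havcr2 (0.119) missed the threshold, and the difference between the comparisons is the knockout contrast above, in which none was called.

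These calls also rested on few livers. They numbered 0, 1 and 1 without knockout 2, 3 and 4, and 1, 0 and 0 without young 1, 2 and 3. Leaving out knockout 1 kept 8 calls, with 6.23% of all genes called higher. There were 21 without either old control 2 or old control 3, and 14 without old control 1 (10.7% of all genes called higher). The old controls are in neither group compared. Calls over all genes moved too: 6.64% were called higher with all livers, 1.5%, 1.32% and 1.12% without knockout 2, 3 and 4, 1.5%, 0.18% and 0.568% without young 1, 2 and 3, and 8.72% and 12.2% without old control 2 and 3. DESeq2 called 19 of the 45 (10.5% of all genes), limma voom 3 (3.06%), and a fit of the 2 groups alone 24 (16.9%).

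Taken by guide against the old controls, none of the 45 genes was called in edgeR, with 0.0216% of all genes called for guide 2 and 0.0% for guide 4; no gene of the 45 had an unadjusted p under 0.05 with either guide (7.04% of all genes for guide 2, 3.91% for guide 4), and DESeq2 called none of the 45. The guides were compared directly with 2 livers each. None of the 45 passed (0.0216% of all genes did), and 1 had an unadjusted p under 0.05, against 4.34% of all genes. That gene was Klrb1c, with 0.847 and 1.11 CPM under guide 2 and 0.290 and 0.436 CPM under guide 4 (log2 fold change, guide 4 minus guide 2, -1.39, SE 0.54, unadjusted p 0.0279, edgeR adjusted p 0.994). Both livers of guide 4 lay above both of guide 2 for 12 of the 38 tested, Cd3e, Cd3g, Cd4, Cd8a, Zap70, Cd2, Cd5, Eomes, Pdcd1, Havcr2, Gzmk and Prf1, against 18.1% of all genes. Guide 2 lay above guide 4 for 3, the NK receptor genes Klrd1, Klrk1 and Klrb1c, a smaller share than the 20.4% of all genes. Summed NK receptor levels were 8.10 and 7.99 CPM under guide 2 and 4.41 and 6.80 CPM under guide 4. Coreceptors summed to 5.04 and 3.91 CPM under guide 2 and 6.62 and 15.4 CPM under guide 4. Of the 15.4 CPM, in knockout 2, Cd4 made up 8.33 CPM. Differences of these sums between guides were not tested. Knockout 2, a guide 4 liver, was the highest knockout liver for 30 of the 45 genes. Knockout 1 alone, the other guide 4 liver, was above the guide 2 mean for 19 genes and below for 26, with a median ratio of 0.961.

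Other genes of the same pathways were counted from lists made without these 45. Of 19 genes of the signalling cascade below the receptor, 14 were tested and 8 rose with age, where 14.1% of all genes tested were called higher. The 4 with the smallest p were Fyn, a second kinase of the Lck family (log2 fold change 0.93, SE 0.16, edgeR adjusted p 0.00815), Lcp2, the adaptor SLP-76 (1.70, SE 0.30, adjusted p 0.00877), the phosphatase gene Ptpn22 (2.10, SE 0.48, adjusted p 0.0149) and the exchange factor gene Vav1 (1.91, SE 0.46, adjusted p 0.0174), several of which other leukocytes also use. Of 14 homing and residence genes, 13 were tested and 5 rose, led by Cx3cr1, a chemokine receptor of effector lymphocytes and monocytes. It had 0.725 to 0.917 CPM in young livers and 5.40, 6.56 and 3.53 CPM in old controls (log2 fold change 2.64, SE 0.35, edgeR adjusted p 0.00667). The integrin gene Itgal (1.95, SE 0.42, adjusted p 0.0123) and the chemokine receptor gene Ccr2 (1.64, SE 0.41, adjusted p 0.0198) were also among them. Among 17 T cell subset genes in the table, 9 were tested and 3 rose: Runx3, the factor of CD8 cells (1.93, SE 0.54, adjusted p 0.0294), Blk (2.02, SE 0.57, adjusted p 0.0305), a kinase that B cells also express, and Ikzf2, with 1 to 3 counts in young livers and 9, 29 and 7 in old controls (adjusted p 0.0404). Of 27 further cytotoxic and NK genes in the table, 13 were tested and 3 rose, a count near the 14.1% of all genes, namely the chemokine gene Ccl3, Slamf7 and Il18rap (2.5, 1.77 and 1.75, SE 0.75, 0.56 and 0.56, with adjusted p of 0.0359, 0.0420 and 0.0438). None of these lists had a gene called lower with age, and none had a gene called between knockout and old control livers. Il17a had no count in any liver, and the constant region genes of the T cell receptor were not analysed here.

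Markers of several, but not all, other cell types were higher in summed level in old controls. While 14.1% of all genes tested were called higher, 7 of 9 pan-leukocyte genes, 6 of 11 B cell genes, 9 of 11 Kupffer cell genes, 7 of 13 genes of monocyte-derived macrophages and 5 of 12 neutrophil genes were, and none of these lists had a gene at 0 in every liver. For the plasma cell list the summed level in old controls was 0.571 of that in young livers, with 3 of 8 genes called higher and 1 lower. That plasma cell sum was 733 to 1052 CPM in young livers, above the 289 to 406 CPM of Kupffer cell markers there. Dendritic cell markers, at 246 to 324 CPM in young livers, had a ratio of 1.02, with 2 of 11 genes called higher. What part of these 2 sums came from plasma cells or dendritic cells was not tested, so the ratios do not measure those cells. Outside the blood, the ratio was 1.78 for liver endothelium and 1.86 for stellate cells and fibroblasts, and it was 1.77 and 1.62 without old control 2. B cell markers summed to 5.13 to 7.95 CPM in young livers, 33.1, 31.6 and 10.7 CPM in old controls and 25.1 to 39.4 CPM in knockout livers, so that old control 2 did not stand out for them and old control 3 was again the lowest old liver. Of 10 hepatocyte genes, 2 were called lower and none higher, and their summed level in old controls was 0.876 of that in young livers. What part the mix of cells in each liver had in the T cell and NK cell values was not tested.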

How the data were processed

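The deposited file is a count table: unscaled whole-number counts for each symbol and liver, as the authors made them. The submitters' processing notes name FastQC 0.11.8, Trim Galore 0.4.4, STAR 2.5.3a, HOMER and the build mm10. The annotation, the use of strand and the counting rule are not given in the sources used here, so genes that overlap others carry an uncertainty. Per the labels' protocols, libraries were made from polyadenylated RNA and read from both ends.

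Counts as deposited were tested with edgeR 4.0.16 (quasi-likelihood test, R 4.3.3), with 1 coefficient per group over all 10 livers, so that the groups share 1 estimate of spread, trimmed mean of M values factors, and filterByExpr with a minimum count of 10 and a minimum total of 15. This left 13909 of 24537 genes; 5807 had no count. Benjamini-Hochberg adjustment ran over all genes tested, with calls under 0.05. The guides were tested in a fit with their own coefficients. The biological coefficient of variation was 21.8%. The labels do not say that the livers of a group came from separate animals, so p-values measure only the spread between these samples. Where every young liver had 3 counts or fewer, ratios of counts per scaled total are given with an exact conditional 95% interval, and for a gene at 0 a lower bound against 3 counts per library. Reads carry no molecular identifiers, so intervals cover counting error only. DESeq2 1.42.0 and limma 3.58.1 (voom), other size factors, no filter, 2-group fits and leaving out each liver were the alternatives. The edgeR step was tested on simulated counts with known changes. Symbols were looked up in GENCODE M21 (GRCm38) for positions.

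The genes, roles, lists and the naming rule were chosen with earlier results of these data known. Values in every liver are given for the genes called with age or in knockout against young livers and for Cd3e, Cd4, Cd8a, Gzmk, Prf1, Pdcd1, Ifng, Ncr1 and Klrb1c, and for each pathway list up to 4 genes with the smallest p. One gene that this rule names is not reported here.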

Additional observations from a re-analysis of the deposited data

Results flagged for a closer look

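Among the 45 genes and the sums by role, 55 results were examined for a single knockout liver far from the other 3, and 3 had one. Chance flags about 1 in 20 groups, here 2.75 of 55, and several of these results share livers. For Cd4, knockout 2 was the highest with 8.33 CPM against 1.40 to 2.44 CPM in the others, a gap of 0.850 of the whole range. For the summed transcription factors, knockout 2 was again the highest, with 14.8 CPM against 11 to 11.5 CPM (0.863 of the range). For Eomes, knockout 4 was the lowest, with 0.175 CPM against 0.518 to 0.581 CPM (0.845 of the range), and its 0.175 CPM is 3 counts.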

How the results depend on the processing

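The age count of 15 became 2 with limma voom. It was 0 in a fit of the 2 groups alone, whose filter left 20 of the 45 genes (5.69% of all genes called higher). Over fits without 1 liver the count ran from 0 to 26. The count of 12 for knockout against young became 19 with DESeq2, 3 with limma voom and 24 in the fit of 2 groups, and ran from 0 to 21 without 1 liver. Other size factors and no filter kept both counts within 1.5 times. The count between knockout and old control was 0 in every alternative, also by guide. Summed CPM in young livers was 31.6 on scaled totals and 27.1 on total counts. The cause of these moves was not tested.

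Directions held for age except without old control 2, where Cd4 (-0.22) and Prf1 (-0.15) turned; without 1 liver these ranged to 3.55 and 1.08. Between knockout and old control, where no gene was called, limma voom gave log2 fold changes above 0 for 29 of the 38 genes tested, against 19 in edgeR; among the genes the naming rule picks it turned Cd3e to 0.15, Cd27 to 0.11, Pdcd1 to 0.24, Gzmk to 0.13, Nkg7 to 0.10, Klrd1 to 0.12 and Klrk1 to 0.048. Without 1 liver the log2 fold changes crossed 0 and ranged from -0.54 to 0.54 for Cd3e, -0.36 to 0.99 for Cd3g, -2.35 to 1.73 for Cd4, -0.36 to 1.35 for Cd8a, -0.18 to 1.62 for Cd8b1, -0.58 to 0.36 for Lat, -0.78 to 0.32 for Cd7, -0.38 to 0.63 for Cd27, -0.90 to 1.65 for Pdcd1, -1.09 to 0.38 for Havcr2, -0.48 to 0.14 for Gzmb, -1.07 to 1.47 for Gzmk, -0.060 to 1.16 for Prf1, -0.71 to 0.81 for Nkg7, -0.61 to 0.56 for Klrd1 and -0.39 to 0.59 for Klrk1.

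No paired analysis was possible because livers of different groups share no number in the labels. Where leaving out a liver left a guide with 1, that liver was assumed to vary like the others. Depth limits the 7 genes below the filter and those with 3 counts or fewer in young livers.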
